A study of Homo sapiens with 18 samples.

Results

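The 37 genes described here are the transcription factor NRF2, its partners and regulators, and the antioxidant and detoxification genes it is best known for switching on. They were chosen by name as genes of the pathway, with earlier results of these data known, and all 37 were among the 26443 genes with values in the deposited table. Of these, 33 had at least 1 RPKM (reads per kilobase of gene, scaled to library depth) in at least 3 of the 18 libraries and were tested, out of 12900 genes tested in all. The remaining 4, GSTP1, AKR1B1, ABCC2 and ABCC3, were too low to test.

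RNA sequencing was done in LNCaP, an androgen-responsive human prostate cancer cell line, after lentiviral infection for 5 days. Cells labelled shFOXA1 + KC7F2 carried a short hairpin RNA against FOXA1, a pioneer factor of prostate luminal cells, and received 40 µM KC7F2, a small-molecule HIF1A inhibitor, for 24 h. Cells labelled shFOXA1 + shHIF1A carried hairpins against FOXA1 and against HIF1A, the hypoxia-responsive transcription factor, and cells labelled shFOXA1 carried the first alone. Cells with the control vector pGIPZ were treated with the same dose of KC7F2, cells labelled shHIF1A carried the HIF1A hairpin alone, and pGIPZ cells were the control. All 6 groups of 3, controls included, had 100 µM CoCl2 for 24 h, a hypoxia mimic that is itself a known inducer of HMOX1, so no group shows these genes without it. The labels do not say that triplicates were separate cultures, and the p-values then stand for the spread among these libraries, which may be technical. In bulk RNA, fewer cells of a kind and less RNA per cell cannot be told apart.

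NRF2, encoded by NFE2L2, is held low by KEAP1, an adaptor that carries it to a ubiquitin ligase. Oxidants and electrophiles modify cysteines of KEAP1, NRF2 then accumulates, pairs with a small MAF protein such as MAFG and binds antioxidant response elements beside genes for glutathione and thioredoxin metabolism, quinone reduction, NADPH supply and haem breakdown. Because this control acts on the protein, the RNA of NFE2L2 need not move when its targets do. BACH1, a repressor, competes with NRF2 at some of the same elements, HMOX1 above all.

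Depth recovered from the values, in units of 1e6 reads, was 6.69 to 9.20 in shFOXA1 + KC7F2 libraries, 3.26 to 8.43 in shFOXA1 + shHIF1A, 5.17 to 7.70 in shFOXA1, 9.69 to 12.1 in pGIPZ + KC7F2, 8.89 to 12.04 in shHIF1A and 10.3 to 11.6 in pGIPZ libraries. Libraries pGIPZ + KC7F2 1 and 3 and pGIPZ 1 had 0.40, 0.31 and 0.45 log2 units more signal in short than in long genes, against -0.20 to 0.08 in the other 15; they are called the short-gene libraries here, and results that rest on them are given with and without them. FOXA1 measured 34.1 ± 1.51 RPKM in shFOXA1 cells and 97.5 ± 22.7 in pGIPZ cells (SD, n = 3 each), and HIF1A measured 3.56 ± 0.642 in shHIF1A cells and 23.1 ± 7.91 in pGIPZ cells, each target being lower in the cells with its hairpin. FOXA1 was less low where both hairpins were present: it measured 39.3 ± 4.59 RPKM in shFOXA1 + KC7F2, 64.5 ± 5.77 in shFOXA1 + shHIF1A and 119.9 ± 3.06 in shHIF1A cells. That is 0.91 ± 0.16 log2 units more in shFOXA1 + shHIF1A than in shFOXA1 cells (limma adjusted p = 3.02e-04), so comparisons that involve the double-hairpin cells also differ in how far FOXA1 was depleted. HIF1A RNA was higher after FOXA1 depletion, at 89.9 ± 8.998 RPKM, and low again in shFOXA1 + shHIF1A cells, at 4.32 ± 0.245. All 10 luminal markers on a fixed list stayed at 1 RPKM or more in every library. Their summed level was lower with the HIF1A hairpin, at 890.1 to 994 RPKM in shFOXA1 + shHIF1A and 1071 to 1245 in shHIF1A libraries, against 1496 to 1628 in shFOXA1 and 1784 to 2209 in pGIPZ libraries; it was 1547 to 1649 in shFOXA1 + KC7F2 and 1574 to 1677 in pGIPZ + KC7F2 libraries. Markers of other cell types, 15 genes led by the macrophage and lysosome gene CD68, summed to at most 26.8 RPKM, with their highest sums in shFOXA1 libraries, from 25.7, and 11.4 to 12.9 in pGIPZ libraries; the basal keratin KRT5 was listed at 0 throughout. Whether these differences in markers play a part in the results was not tested.

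The NRF2 partners recognise a short core, TGACNNNGC, and the windows that hold it are shown here because the genes carrying them are among those described below. RefSeq (GRCh38.p14) gave the 250 bases before the annotated start for 28 of the 37 genes, and a search on both strands found the core in 7 of the 28 (25%), against 11.03% of 27305 promoter windows of the same length. The cores of the hypoxia response element, ACGTG or GCGTG, were in 50% of the 28 windows and in 43.08% of all windows, and the forkhead words TGTTTAC or TGTTTGC in 10.71% and 6.05%. Overlap between the 3 motifs was not scored, and a match describes letters, not a bound site. The windows of 5 genes with full values below are printed 5′ to 3′ along the strand of the gene, with the core in capitals. They are GCLM at chr1:93909431-93909680, minus strand, GPX2 at chr14:64942746-64942995, minus strand, TXNRD1 at chr12:104215529-104215778, plus strand, ME1 at chr6:83431052-83431301, minus strand, and FECH at chr18:57586703-57586952, minus strand.
GCLM: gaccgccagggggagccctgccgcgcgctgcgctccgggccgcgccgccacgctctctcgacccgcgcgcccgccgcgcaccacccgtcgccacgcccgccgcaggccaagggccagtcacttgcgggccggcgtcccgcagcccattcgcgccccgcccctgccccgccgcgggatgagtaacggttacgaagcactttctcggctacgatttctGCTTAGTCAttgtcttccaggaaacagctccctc
GPX2: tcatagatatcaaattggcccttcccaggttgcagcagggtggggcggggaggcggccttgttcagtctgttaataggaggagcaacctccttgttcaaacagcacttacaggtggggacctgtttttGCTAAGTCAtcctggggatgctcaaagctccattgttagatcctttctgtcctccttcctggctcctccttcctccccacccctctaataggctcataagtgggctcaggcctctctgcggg
TXNRD1: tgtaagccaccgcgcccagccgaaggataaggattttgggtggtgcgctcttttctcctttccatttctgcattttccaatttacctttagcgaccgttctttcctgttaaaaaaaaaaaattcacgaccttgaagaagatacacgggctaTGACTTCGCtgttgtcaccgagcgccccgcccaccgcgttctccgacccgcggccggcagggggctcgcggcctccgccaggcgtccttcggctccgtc
ME1: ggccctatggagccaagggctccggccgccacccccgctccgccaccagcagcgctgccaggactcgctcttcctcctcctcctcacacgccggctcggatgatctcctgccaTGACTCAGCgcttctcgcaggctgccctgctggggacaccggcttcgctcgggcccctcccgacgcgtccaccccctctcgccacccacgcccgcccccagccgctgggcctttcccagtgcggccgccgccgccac
FECH: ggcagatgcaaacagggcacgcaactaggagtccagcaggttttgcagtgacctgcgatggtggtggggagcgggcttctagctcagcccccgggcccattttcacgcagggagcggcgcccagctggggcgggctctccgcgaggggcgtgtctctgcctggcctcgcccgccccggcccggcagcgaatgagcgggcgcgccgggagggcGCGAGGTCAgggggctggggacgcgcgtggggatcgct
The core ends 26 bases before the start in GCLM and 30 bases before it in FECH, and lies farther out in TXNRD1, GPX2 and ME1.

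**Figure D1:**
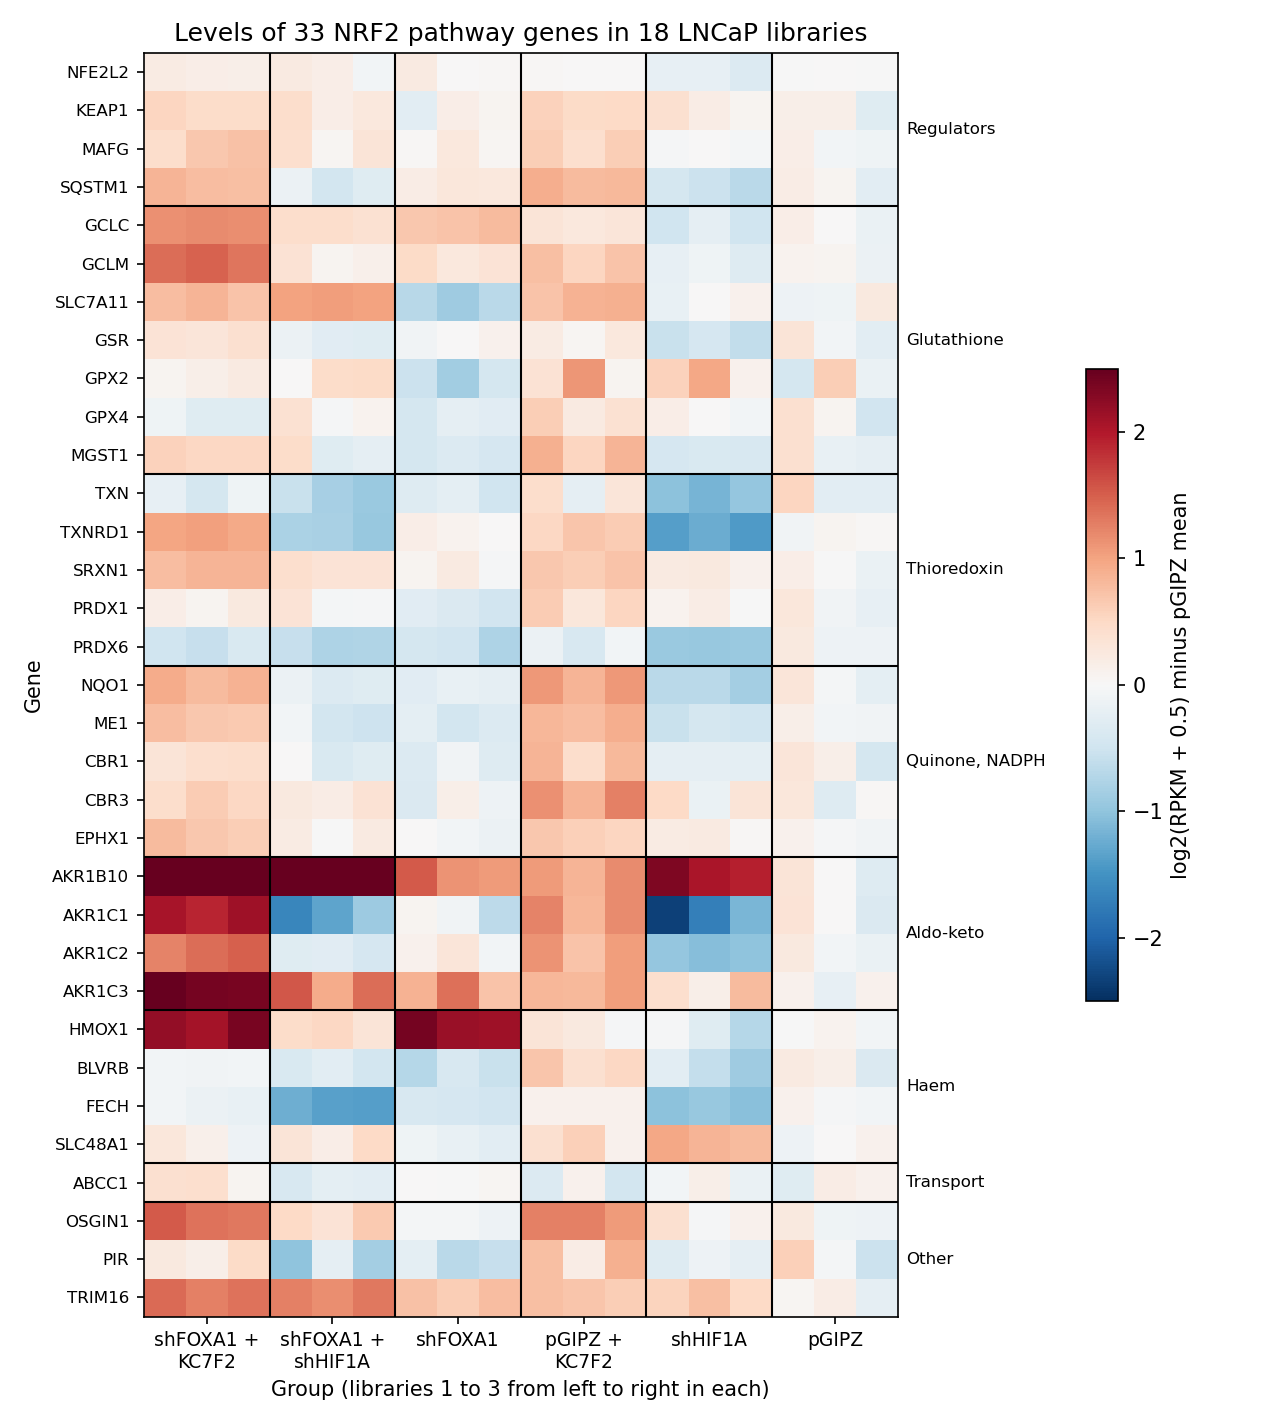
Level of each of the 33 tested genes (rows, by role) in each of the 18 libraries (columns, by group), as log2(RPKM + 0.5) minus the mean of the 3 pGIPZ libraries. Colour saturates at 2.5 log2 units in either direction, which AKR1B10 and AKR1C3 pass in some libraries with the FOXA1 hairpin and KC7F2 or the HIF1A hairpin. The KC7F2 columns are mostly red, and HMOX1 is strongly red with the FOXA1 hairpin but pale where HIF1A is depleted too.

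The first question was how the pathway differed with KC7F2. With KC7F2 genes of quinone reduction and NADPH supply, glutathione metabolism, the thioredoxin system and the aldo-keto reductases were called higher in both backgrounds, and limma called no member lower. In pGIPZ cells 17 of 33 members were higher with KC7F2 than without (limma adjusted p below 0.05 over all 12900 genes), where 1.05% of all genes tested were called higher, and 0 were lower, where 0.992% were called lower. By the unadjusted p, 25 members were below 0.05 in either direction, as were 1537 of all 12900 genes. The median log2 change was 0.61 over the members and 0.07 over all genes tested. In shFOXA1 cells KC7F2 raised 21 members, with 1.71% of all genes called higher, and lowered 0, with 2.37% called lower, the lowest member change being -0.01. The medians were 0.65 and -0.01. These 2 comparisons share no library, and 16 genes were called higher in both, 94.1% of the 17 and 76.2% of the 21. CBR3 was called in pGIPZ cells alone, and AKR1C1, FECH, GCLC, KEAP1 and PRDX1 in shFOXA1 cells alone. A test of the difference between the backgrounds called 0 members, with 0.0775% of all genes called. In that test 5 members were below an unadjusted p of 0.05, as were 872 of all 12900 genes.

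NQO1 (chr16:69709401-69726560), the quinone reductase by which NRF2 activity is often read, showed the pattern plainly. It measured 212, 195 and 204 RPKM in the shFOXA1 + KC7F2 libraries, 102, 88.2 and 90.2 in shFOXA1 + shHIF1A and 92.2, 98.7 and 95.9 in shFOXA1 libraries. Without the FOXA1 hairpin it measured 239, 203 and 238 RPKM in pGIPZ + KC7F2, 69.5, 69.5 and 62.1 in shHIF1A and 137, 108 and 94.8 in pGIPZ libraries. Every KC7F2 library was above every library without the drug, and the shHIF1A libraries were the lowest. NQO1 rose by 1.01 ± 0.12 log2 units (SE) with KC7F2 in pGIPZ cells (limma adjusted p = 1.48e-04) and by 1.09 ± 0.12 in shFOXA1 cells (limma adjusted p = 3.67e-05). With the HIF1A hairpin it fell by 0.74 ± 0.12 in pGIPZ cells (limma adjusted p = 1.16e-04).

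These calls depended on which libraries entered the fit. In a fit of pGIPZ + KC7F2 and pGIPZ libraries alone, with their own estimate of the spread, 1 of the 17 calls remained, OSGIN1, and 9 genes in all were called higher, with the same log2 changes. Without the 3 short-gene libraries 7 remained: NQO1, ME1, OSGIN1, SLC7A11, SQSTM1, SRXN1 and TXNRD1. That fit leaves pGIPZ + KC7F2 2 as the only library of its group, assumed to vary like the other groups. The calls of AKR1B10, AKR1C3, CBR1, MAFG and MGST1 were each lost without 1 or more of the single libraries pGIPZ + KC7F2 1, pGIPZ + KC7F2 2, pGIPZ + KC7F2 3, pGIPZ 2 or pGIPZ 3, with log2 changes of 0.48 to 1.02 and limma adjusted p of 0.0513 to 0.176. In shFOXA1 cells CBR1, FECH, GCLC, KEAP1, MAFG, PRDX1 and SQSTM1 lost theirs without 1 or more of shFOXA1 + KC7F2 1, shFOXA1 + KC7F2 2, shFOXA1 + KC7F2 3, shFOXA1 1, shFOXA1 2 or shFOXA1 3, with log2 changes of 0.27 to 0.68 and limma adjusted p of 0.0516 to 0.205.

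**Figure D2:**
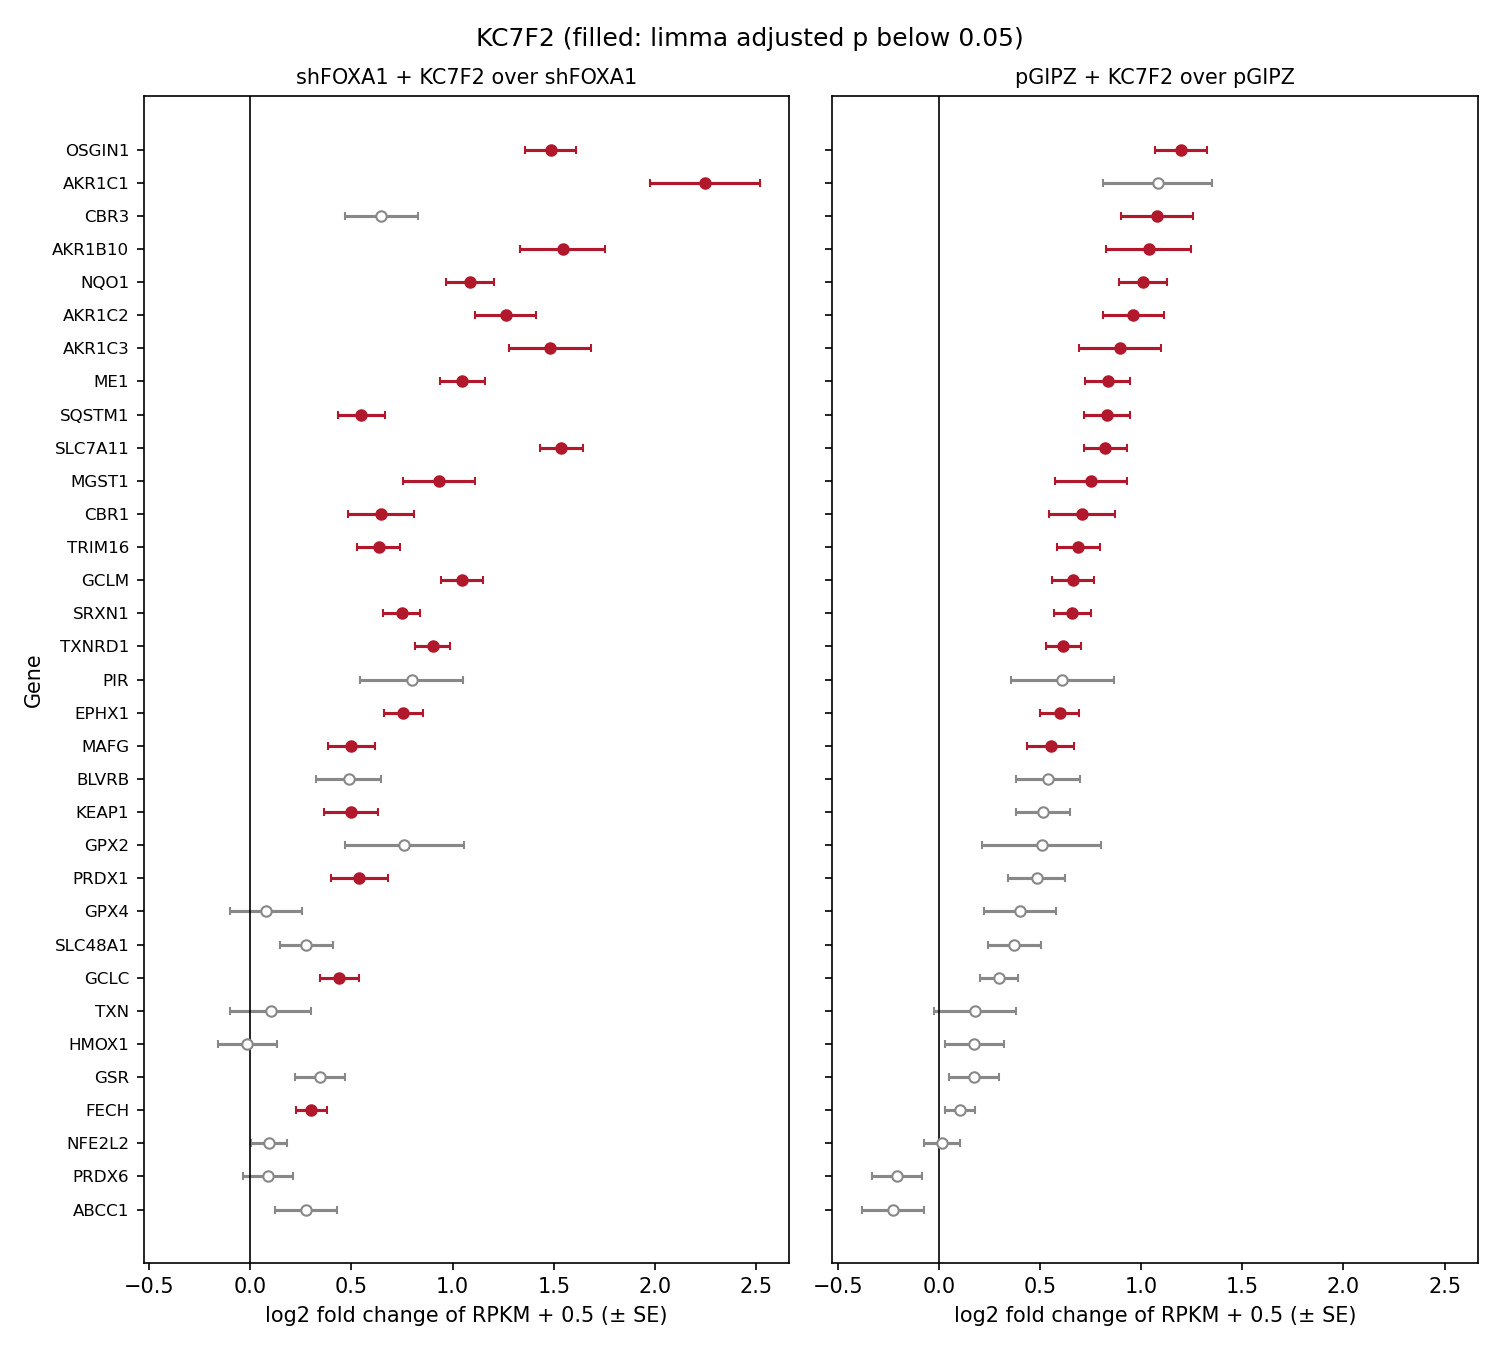
Log2 fold change with KC7F2 on the log2(RPKM + 0.5) scale, as points with their SE, for the 33 tested genes in shFOXA1 cells (left) and pGIPZ cells (right). Genes run down the page by their change in pGIPZ cells, and a filled point marks a limma adjusted p below 0.05; all 21 filled points on the left and all 17 on the right lie above 0.

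The second question was what a hairpin against HIF1A did to the same genes. In pGIPZ cells 3 of 5 thioredoxin genes fell, with 2 of 4 regulators, 2 of 5 quinone and NADPH genes and 2 of 7 glutathione genes. Of the 4 haem genes 2 fell and 1 rose, and of the 4 aldo-keto reductases 2 fell and 1 rose. Over all genes 16.1% were called lower and 25.9% higher. The roles were not tested against each other. Of the 10 luminal markers, 7 fell with this hairpin in each background and 0 rose, with median log2 changes of -0.62 in shFOXA1 and -0.60 in pGIPZ cells, and their part in the members' changes was not tested. In shHIF1A cells 13 of 33 members were lower than in pGIPZ cells, with 16.1% of all genes called lower, and 3 were higher, AKR1B10, SLC48A1 and TRIM16, with 25.9% called higher. Without the 3 short-gene libraries these were 12 lower and 4 higher, with 1735 lower and 3225 higher over all 12900 genes. The median log2 change was -0.23 over the members and 0.07 over all genes. When the HIF1A hairpin was added to shFOXA1 cells, 9 members were higher and 7 lower, with 24.0% and 13.5% of all genes called, against 27.3% and 21.2% of the members. Median-ratio scaling turned this split into 7 higher and 11 lower and quantile normalization into 9 and 11. Over all genes, median-ratio scaling called 2260 higher and 2383 lower and quantile normalization 2531 and 2294, against 3096 and 1745 without either. Median-ratio scaling moved the median change of all genes from 0.10 to -0.01. FECH, TXNRD1, AKR1C1, SQSTM1, AKR1C2 and GCLC were called lower with the HIF1A hairpin in both backgrounds, and AKR1B10, SLC48A1 and TRIM16 higher in both; these 2 comparisons share no library. In pGIPZ cells the call of NFE2L2 was lost without pGIPZ 1, pGIPZ 2 or shHIF1A 3 (log2 changes of -0.26 to -0.21, limma adjusted p 0.0519 to 0.113), and in shFOXA1 cells those of AKR1C2, GCLC, GPX2, GPX4, PRDX1 and SRXN1 were lost without 1 or more of shFOXA1 + shHIF1A 1, shFOXA1 + shHIF1A 2, shFOXA1 + shHIF1A 3, shFOXA1 1, shFOXA1 2 or shFOXA1 3 (limma adjusted p 0.0507 to 0.195).

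**Figure D3:**
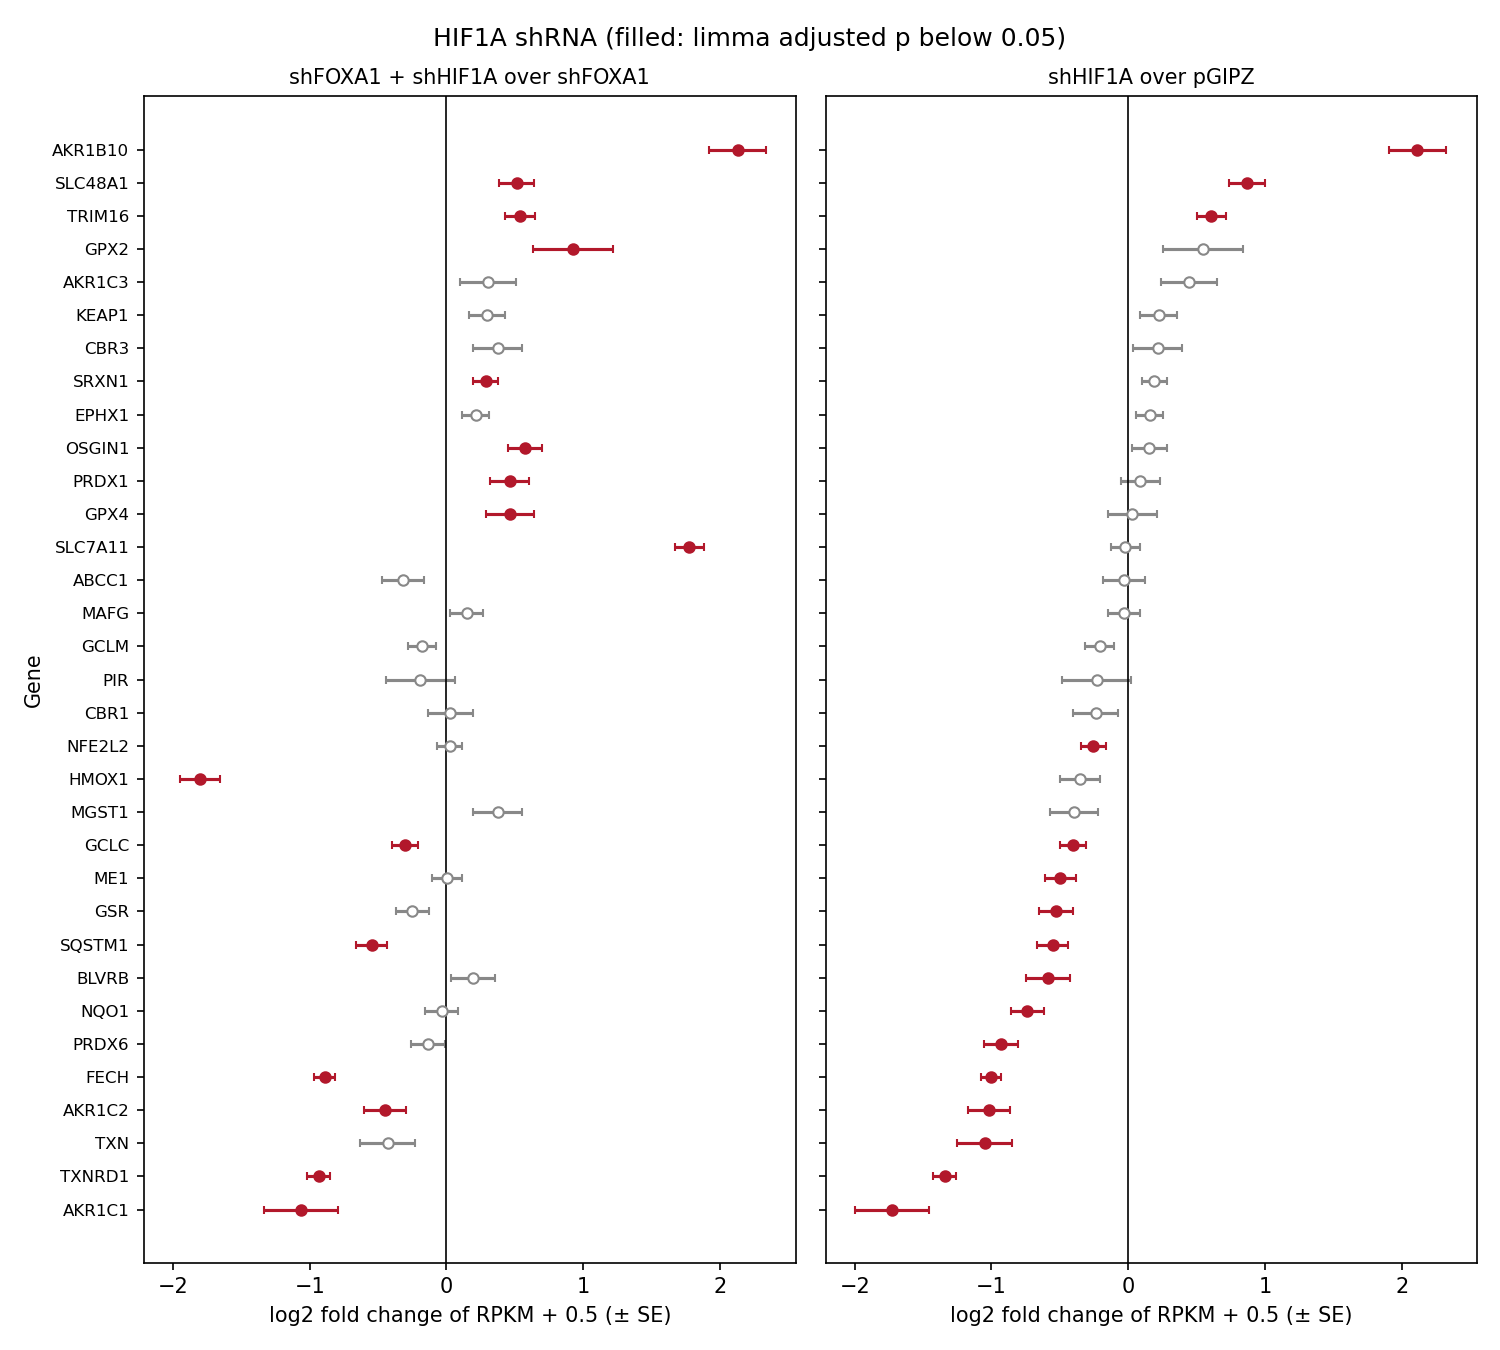
Log2 fold change with the HIF1A hairpin on the log2(RPKM + 0.5) scale, as points with their SE, for the 33 tested genes in shFOXA1 cells (left) and pGIPZ cells (right), ordered by the change in pGIPZ cells. A filled point marks a limma adjusted p below 0.05; AKR1B10 is far to the right in both panels, and TXNRD1, AKR1C1 and FECH are to the left in both.

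The inhibitor and the hairpin were then compared with each other, a comparison that shares libraries with those above. In control-vector cells 25 of 33 members were higher with KC7F2 than with the HIF1A hairpin, with 19.6% of all genes called higher. The 2 lower were AKR1B10 and SLC48A1, with 23.0% called lower. Without the 3 short-gene libraries, pGIPZ + KC7F2 2 was alone on the KC7F2 side. SLC48A1 was then at -0.27 log2 units, against -0.50 with them. PRDX1 was at 0.19 against 0.39, and HMOX1 at 0.59 against 0.52. In FOXA1-depleted cells 21 members were higher with KC7F2 than with the HIF1A hairpin (13.2% of all genes) and 1, AKR1B10, was lower (23.4%). AKR1C1 had the largest of these differences among the tested members in both backgrounds, 2.81 ± 0.27 log2 units in control-vector cells (limma adjusted p = 6.57e-07) and 3.31 ± 0.27 in FOXA1-depleted cells (limma adjusted p = 1.21e-07). HIF1A RNA itself was -0.38 ± 0.23 log2 units with KC7F2 in pGIPZ cells and -0.52 ± 0.23 in shFOXA1 cells, neither of them called. HIF1A protein was not measured in these data, and whether the KC7F2 changes act through HIF1A was not tested. The call of AKR1B10 in FOXA1-depleted cells was lost under 8 alternatives, among them median-ratio scaling, at 0.0767.

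**Figure D4:**
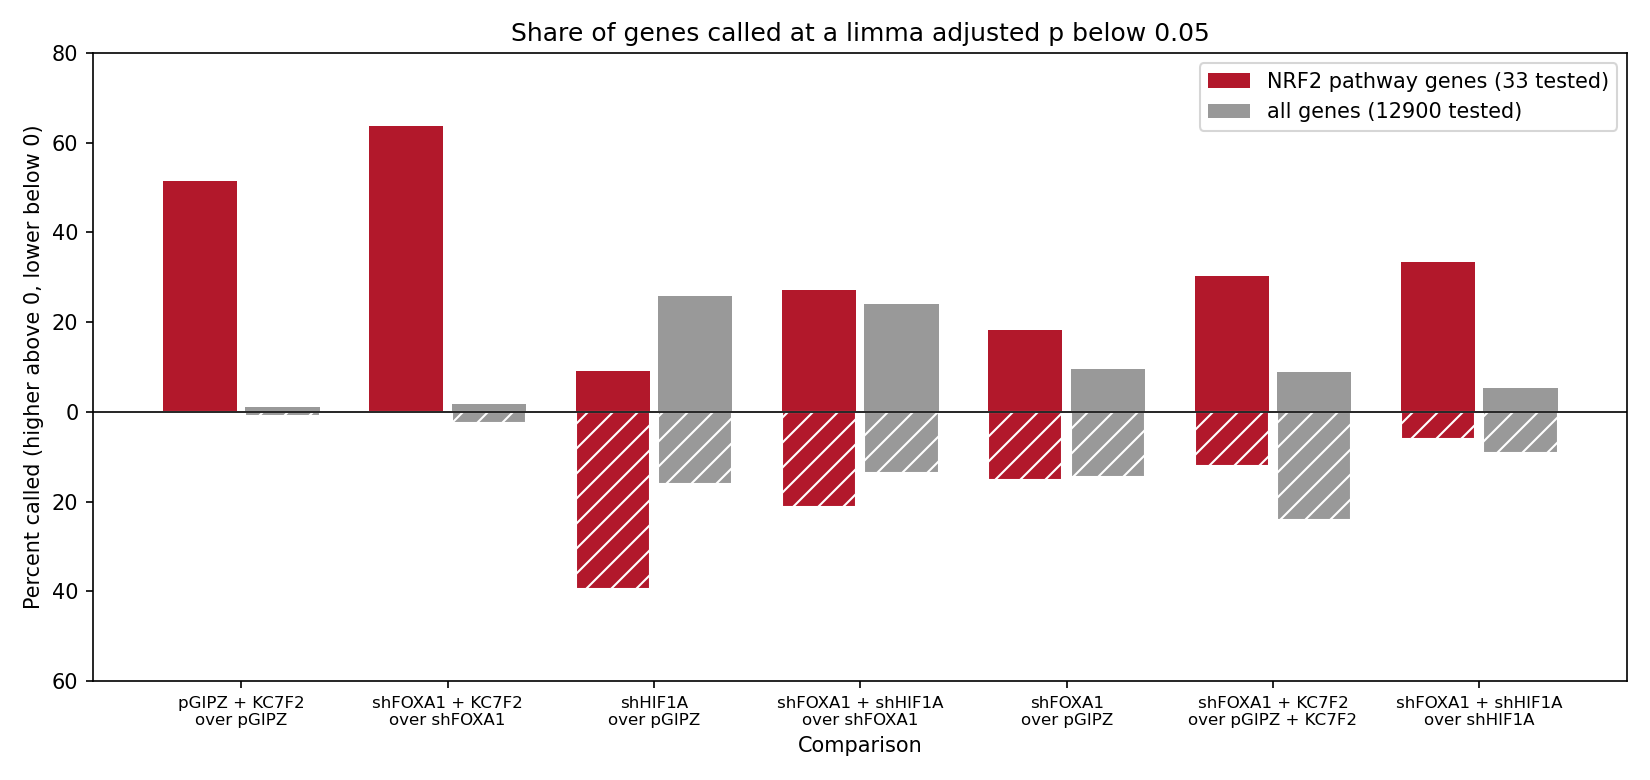
Percent of the 33 tested members (red) and of all 12900 tested genes (grey) called at a limma adjusted p below 0.05 in 7 comparisons, with genes called higher above 0 and genes called lower hatched below 0. The red bars reach 51.5% and 63.6% in the comparisons that add KC7F2, where the grey bars stay near 0.

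FOXA1 depletion gave a mixed picture apart from HMOX1. Compared with pGIPZ cells, shFOXA1 cells had 6 members higher, HMOX1, AKR1B10, AKR1C3, GCLC, TRIM16 and GCLM, with 9.52% of all genes called higher. They had 5 lower, SLC7A11, PRDX6, BLVRB, FECH and ME1, with 14.6% called lower. Quantile normalization gave 8 higher and 4 lower, with 1534 and 1586 over all genes. A fit without the 3 short-gene libraries gave 6 and 3, with 1002 and 1347 over all genes. BLVRB, GCLM and ME1 lost their calls without 1 or more of pGIPZ 1, pGIPZ 2, pGIPZ 3, shFOXA1 1, shFOXA1 2 or shFOXA1 3 (limma adjusted p 0.0501 to 0.129). With KC7F2 present, 10 members were higher in shFOXA1 + KC7F2 than in pGIPZ + KC7F2 cells (8.88% of all genes) and 4 lower (24.1%). That split was 15 and 2 with median-ratio scaling and 16 and 1 with quantile normalization. Over all genes, median-ratio scaling called 1875 higher and 1824 lower and quantile normalization 1712 and 1822, against 1145 and 3105 without either. Median-ratio scaling moved the median change of all genes from -0.15 to 0.00. Without the 3 short-gene libraries, where pGIPZ + KC7F2 2 alone stood for its group, 7 members were called in it, and without pGIPZ + KC7F2 1 there were 9; ABCC1, AKR1C1, AKR1C2, CBR3, FECH and GPX4 lost theirs without 1 or more of pGIPZ + KC7F2 1, pGIPZ + KC7F2 2, pGIPZ + KC7F2 3, shFOXA1 + KC7F2 1, shFOXA1 + KC7F2 2 or shFOXA1 + KC7F2 3 (limma adjusted p 0.0501 to 0.179). With the HIF1A hairpin present, 11 members were higher in shFOXA1 + shHIF1A than in shHIF1A cells (5.27% of all genes) and 2 lower (9.25%). Removing the trend with gene length and GC content raised the total to 20, with 889 higher and 1103 lower over the 12201 genes in that fit. AKR1C3, GCLM, NFE2L2, NQO1 and SLC48A1 lost their calls without 1 or more of shFOXA1 + shHIF1A 1, shFOXA1 + shHIF1A 2, shHIF1A 1, shHIF1A 2 or shHIF1A 3 (limma adjusted p 0.0502 to 0.0770).

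HMOX1, haem oxygenase 1 (chr22:35381096-35394207 in GRCh38.p14, the build of all gene positions here), opens haem to biliverdin, iron and carbon monoxide. It measured 87.1, 80.6 and 97.9 RPKM in shFOXA1 + KC7F2 libraries, 25.7, 26.7 and 23.4 in shFOXA1 + shHIF1A and 100.4, 85.0 and 83.05 in shFOXA1 libraries. The other groups were lower, with 23.3, 22.1 and 18.2 RPKM in pGIPZ + KC7F2, 18.2, 15.0 and 11.1 in shHIF1A and 18.4, 19.8 and 17.6 in pGIPZ libraries. The 6 libraries with the FOXA1 hairpin and no HIF1A hairpin stood far above the other 12, and shFOXA1 + shHIF1A libraries lay just above the rest. HMOX1 rose by 2.23 ± 0.15 log2 units with FOXA1 depletion (limma adjusted p = 1.21e-08) and by 2.04 ± 0.15 when KC7F2 was present (limma adjusted p = 3.64e-08), but by 0.78 ± 0.15 when the HIF1A hairpin was present (limma adjusted p = 0.00174). The effect of FOXA1 depletion was smaller with the HIF1A hairpin than without it by 1.45 ± 0.21 log2 units (limma interaction adjusted p = 2.83e-04). FOXA1 itself was lowered by 0.89 ± 0.16 with the HIF1A hairpin present and by 1.47 ± 0.16 without it, a difference of 0.58 ± 0.22 (unadjusted p = 0.0201, limma adjusted p = 0.142), and its part in the HMOX1 result was not tested. For KC7F2 that difference was -0.19 ± 0.21, not called (limma adjusted p = 0.937). In shFOXA1 cells the HIF1A hairpin lowered HMOX1 by 1.80 ± 0.15 (limma adjusted p = 1.09e-07), while the change with KC7F2 was -0.01 ± 0.15.

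**Figure D5:**
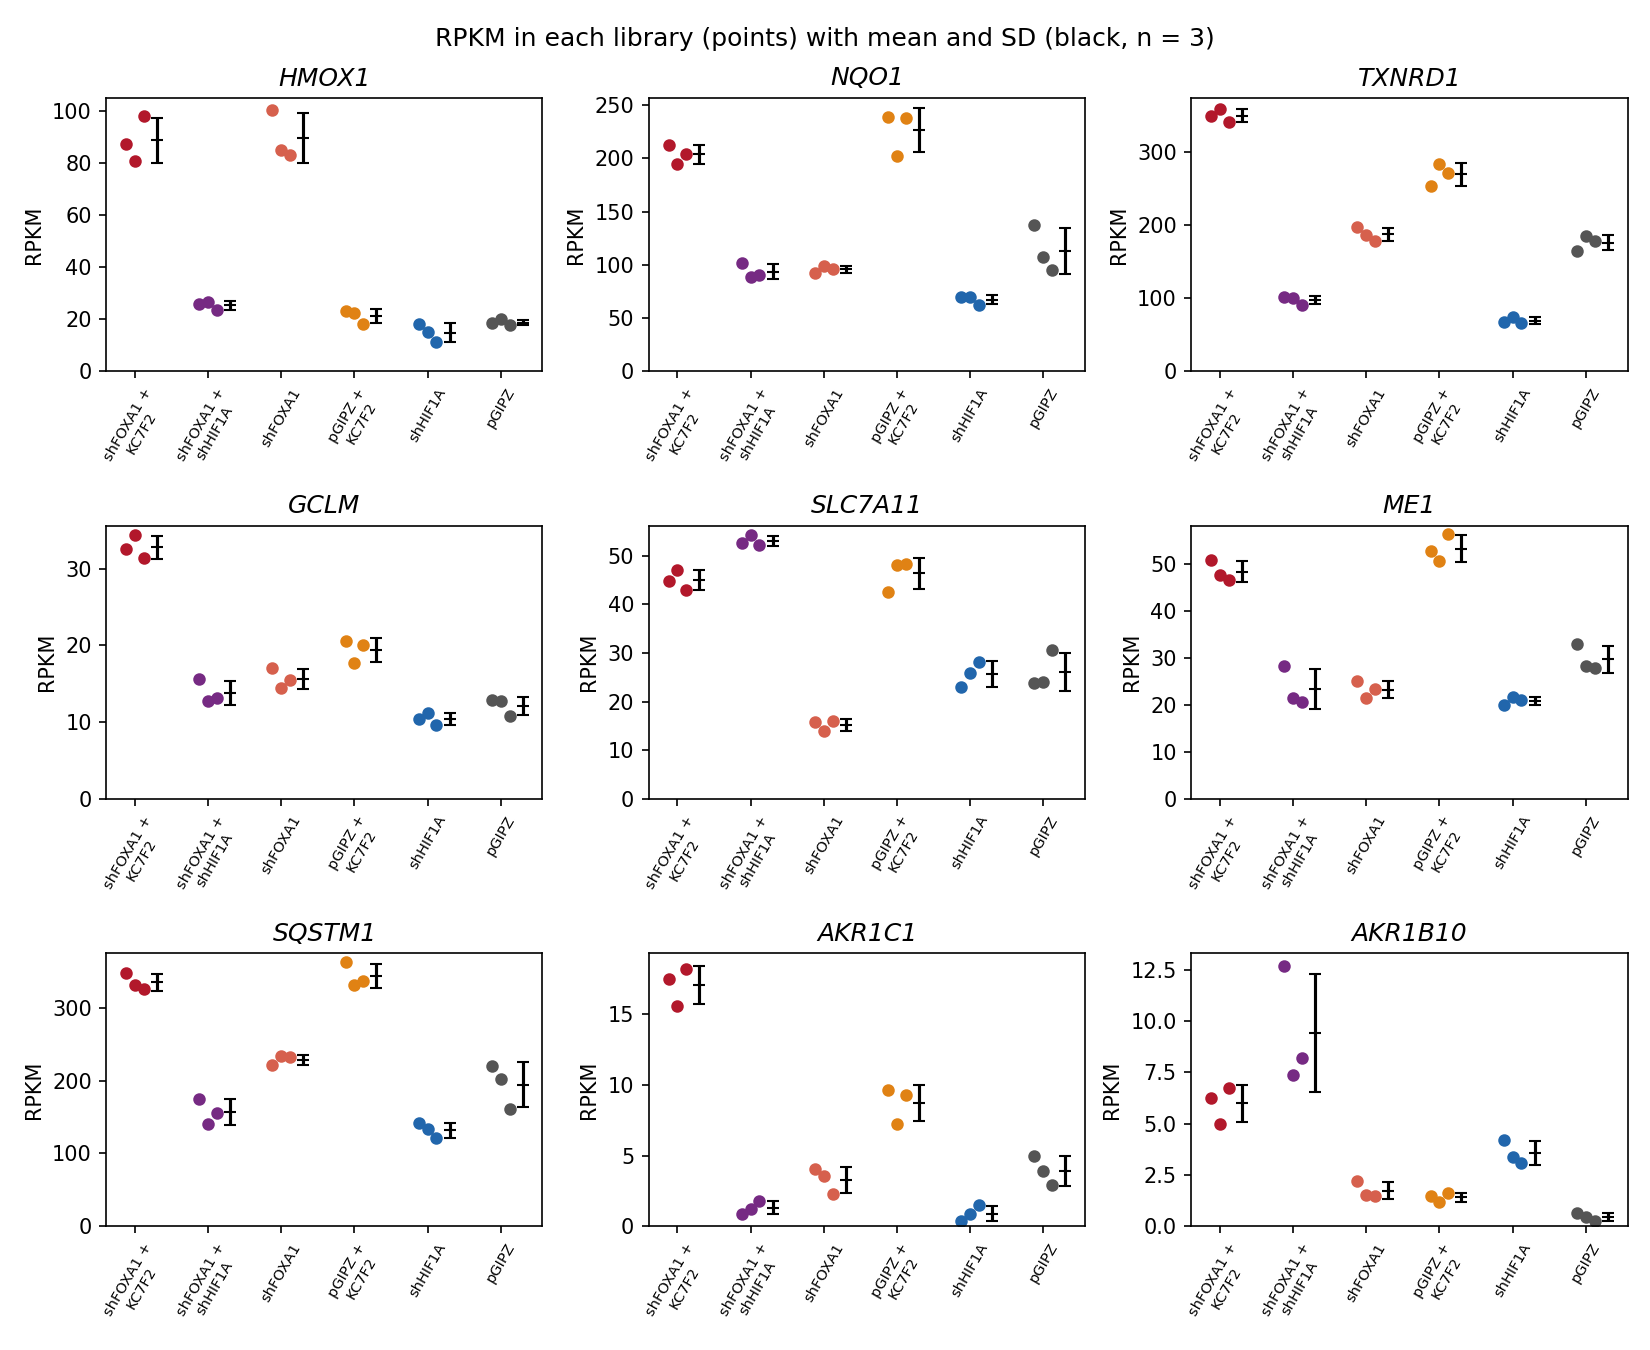
RPKM in each library (points, vertical axis) of 9 members by group (horizontal axis), with the mean and SD of 3 libraries in black. HMOX1 is high with the FOXA1 hairpin unless HIF1A is depleted too, NQO1, ME1 and SQSTM1 are high in both KC7F2 groups, and SLC7A11 is lowest in shFOXA1 cells.

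Such a difference with the HIF1A hairpin was called in 5 of 33 members, 4 higher and 1 lower; over all genes 3.16% had a higher and 4.45% a lower value. SLC7A11, PRDX6, BLVRB and NQO1 had positive values, meaning that the effect of FOXA1 depletion was higher with the HIF1A hairpin, and HMOX1 was the 1 negative. PRDX6, a peroxiredoxin that also acts on phospholipids, measured 236 ± 17.5 RPKM in shFOXA1 + shHIF1A, 259.7 ± 31.1 in shFOXA1, 201 ± 1.54 in shHIF1A and 386 ± 59.0 in pGIPZ cells (SD, n = 3 each). It fell with each hairpin alone, by 0.57 ± 0.12 with that against FOXA1 and by 0.93 ± 0.12 with that against HIF1A, and the interaction was 0.79 ± 0.18 (limma adjusted p = 0.0106). The interaction call of BLVRB, at 0.78 ± 0.23 (limma adjusted p = 0.0459), was lost without any 1 of 9 libraries (pGIPZ 1, pGIPZ 2, shFOXA1 + shHIF1A 1, shFOXA1 + shHIF1A 2, shFOXA1 + shHIF1A 3, shFOXA1 1, shFOXA1 3, shHIF1A 2 or shHIF1A 3), with limma adjusted p of 0.0607 to 0.110.

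Among the regulators, NFE2L2 itself was nearly level. NFE2L2 (chr2:177230303-177264727) measured 23.9, 23.2 and 22.7 RPKM in shFOXA1 + KC7F2, 24.2, 23.3 and 19.5 in shFOXA1 + shHIF1A, 24.3, 20.6 and 20.9 in shFOXA1, 20.9, 20.6 and 20.8 in pGIPZ + KC7F2, 17.7, 17.8 and 16.1 in shHIF1A and 20.5, 20.8 and 20.4 in pGIPZ libraries. The shHIF1A libraries were the lowest and overlapped no other group. Its change with KC7F2 was 0.01 ± 0.09 log2 units in pGIPZ cells and 0.09 ± 0.09 in shFOXA1 cells, neither called, and with the HIF1A hairpin it fell by 0.25 ± 0.09 (limma adjusted p = 0.0302), the call that was lost without 1 of 3 libraries as given above. KEAP1 measured 43.8, 41.5 and 41.0 RPKM in shFOXA1 + KC7F2, 40.7, 33.5 and 35.9 in shFOXA1 + shHIF1A, 24.8, 33.6 and 31.3 in shFOXA1, 45.0, 41.7 and 42.2 in pGIPZ + KC7F2, 39.5, 34.2 and 31.5 in shHIF1A and 33.3, 32.9 and 24.3 in pGIPZ libraries. Both KC7F2 groups were above the groups they were compared with, by 0.50 ± 0.13 in shFOXA1 cells (limma adjusted p = 0.0464) and by 0.52 ± 0.13 in pGIPZ cells, where it was not called (limma adjusted p = 0.0583). SQSTM1, the autophagy receptor p62, which binds KEAP1, measured 348, 332 and 326 RPKM in shFOXA1 + KC7F2, 175, 141 and 155 in shFOXA1 + shHIF1A, 221, 234 and 232 in shFOXA1, 364, 332 and 337 in pGIPZ + KC7F2, 142, 133 and 120.5 in shHIF1A and 221, 202 and 161 in pGIPZ libraries. All 6 KC7F2 libraries exceeded the other 12. It rose with KC7F2 by 0.55 ± 0.12 in shFOXA1 and 0.83 ± 0.12 in pGIPZ cells, and fell with the HIF1A hairpin by 0.55 ± 0.12 and 0.55 ± 0.12. MAFG, the small MAF partner, rose with KC7F2 by 0.50 and 0.55.

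The quinone and NADPH enzymes were all called higher with KC7F2 in pGIPZ cells, 5 of 5, where 1.05% of all genes were called higher. In shFOXA1 cells 4 of 5 were, against 1.71% of all genes. ME1, malic enzyme, supplies NADPH. It measured 50.9, 47.7 and 46.8 RPKM in shFOXA1 + KC7F2, 28.4, 21.5 and 20.6 in shFOXA1 + shHIF1A, 25.001, 21.4 and 23.3 in shFOXA1, 52.9, 50.7 and 56.4 in pGIPZ + KC7F2, 19.996, 21.7 and 21.0 in shHIF1A and 33.03, 28.4 and 27.8 in pGIPZ libraries. Both KC7F2 groups stood clear of the rest. ME1 rose by 1.05 ± 0.11 log2 units in shFOXA1 cells (limma adjusted p = 3.38e-05) and by 0.83 ± 0.11 in pGIPZ cells (limma adjusted p = 4.21e-04). CBR3, a carbonyl reductase, measured 7.72, 8.87 and 8.21 RPKM in shFOXA1 + KC7F2, 6.63, 6.38 and 7.26 in shFOXA1 + shHIF1A, 4.20, 6.19 and 5.04 in shFOXA1, 12.8, 10.4 and 13.9 in pGIPZ + KC7F2, 7.99, 4.88 and 7.08 in shHIF1A and 6.89, 4.35 and 5.67 in pGIPZ libraries. Only pGIPZ + KC7F2 libraries overlapped no other group, and the rise there was 1.08 ± 0.18 (limma adjusted p = 0.00287). CBR1, its close paralog, and EPHX1, an epoxide hydrolase, rose by 0.71 and 0.60 in pGIPZ cells. CBR1 and CBR3 are similar in sequence, and how reads common to both were assigned is not given in the sources used here.

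In glutathione metabolism the subunits of glutamate-cysteine ligase, the rate-limiting enzyme of glutathione synthesis, were called higher with FOXA1 depletion, and in part with KC7F2. GCLC, the catalytic subunit, measured 26.1, 26.6 and 26.6 RPKM in shFOXA1 + KC7F2, 15.8, 15.7 and 15.2 in shFOXA1 + shHIF1A, 18.7, 19.2 and 20.2 in shFOXA1, 14.5, 13.9 and 14.4 in pGIPZ + KC7F2, 7.99, 9.87 and 8.02 in shHIF1A and 12.9, 11.7 and 10.2 in pGIPZ libraries. No group overlapped another, and the 3 with the FOXA1 hairpin were the highest 3. GCLC rose with FOXA1 depletion by 0.72 ± 0.09 (limma adjusted p = 2.90e-05), by 0.87 ± 0.09 with KC7F2 present and by 0.82 ± 0.09 with the HIF1A hairpin present. With the HIF1A hairpin it fell by 0.30 ± 0.09 in shFOXA1 and 0.41 ± 0.09 in pGIPZ cells. With KC7F2 GCLC was called higher in shFOXA1 cells alone. That call was lost without shFOXA1 1 or shFOXA1 + KC7F2 2, at limma adjusted p of 0.0612 and 0.0516. GCLM, the modifier subunit whose window is printed above, measured 32.6, 34.4 and 31.4 RPKM in shFOXA1 + KC7F2, 15.6, 12.7 and 13.1 in shFOXA1 + shHIF1A, 17.1, 14.5 and 15.4 in shFOXA1, 20.6, 17.7 and 20.04 in pGIPZ + KC7F2, 10.4, 11.1 and 9.60 in shHIF1A and 12.8, 12.7 and 10.8 in pGIPZ libraries. The shFOXA1 + KC7F2 libraries were the highest and the pGIPZ + KC7F2 libraries the next, with no overlap. GCLM rose with KC7F2 by 1.04 ± 0.10 in shFOXA1 cells (limma adjusted p = 1.50e-05) and by 0.66 ± 0.10 in pGIPZ cells (limma adjusted p = 0.00162). Its rise with FOXA1 depletion, 0.36 ± 0.10, lost its call without pGIPZ 3 or shFOXA1 1, at limma adjusted p of 0.0601 and 0.0837.

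SLC7A11, the cystine importer that feeds glutathione synthesis, changed with the HIF1A hairpin in FOXA1-depleted cells and was not called with it in pGIPZ cells. SLC7A11 measured 44.9, 47.1 and 43.0 RPKM in shFOXA1 + KC7F2, 52.7, 54.3 and 52.3 in shFOXA1 + shHIF1A, 15.8, 13.9 and 16.0 in shFOXA1, 42.6, 48.1 and 48.4 in pGIPZ + KC7F2, 22.9, 26.0 and 28.1 in shHIF1A and 23.8, 24.0 and 30.7 in pGIPZ libraries. The shFOXA1 libraries were the lowest and the shFOXA1 + shHIF1A libraries the highest, each clear of all other groups. FOXA1 depletion lowered it by 0.76 ± 0.11 (limma adjusted p = 5.98e-05), and with the HIF1A hairpin present raised it by 1.04 ± 0.11 (limma adjusted p = 5.61e-06), an interaction of 1.79 ± 0.15 (limma adjusted p = 1.64e-06), to which the FOXA1 values given for HMOX1 apply too. In shFOXA1 cells it rose by 1.77 ± 0.11 with the HIF1A hairpin and by 1.54 ± 0.11 with KC7F2, against -0.02 ± 0.11, not called, and 0.82 ± 0.11 in pGIPZ cells. The difference between backgrounds in the KC7F2 effect, 0.71 ± 0.15, was not called (limma adjusted p = 0.0981).

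MGST1, a membrane-bound glutathione transferase, measured 94.5, 91.3 and 90.9 RPKM in shFOXA1 + KC7F2, 87.0, 51.7 and 54.4 in shFOXA1 + shHIF1A, 46.8, 50.3 and 47.5 in shFOXA1, 117, 91.8 and 115 in pGIPZ + KC7F2, 47.5, 48.8 and 48.2 in shHIF1A and 84.3, 55.6 and 54.6 in pGIPZ libraries. The 6 KC7F2 libraries were the highest 6, while shFOXA1 + shHIF1A 1 and pGIPZ 1 stood above the other libraries of their groups. It rose with KC7F2 by 0.93 ± 0.18 in shFOXA1 and 0.75 ± 0.18 in pGIPZ cells. GPX2, a glutathione peroxidase of epithelia, stayed low everywhere, with 1.31, 1.40 and 1.52 RPKM in shFOXA1 + KC7F2, 1.23, 1.85 and 1.90 in shFOXA1 + shHIF1A, 0.693, 0.437 and 0.774 in shFOXA1, 1.71, 3.18 and 1.31 in pGIPZ + KC7F2, 2.05, 2.86 and 1.35 in shHIF1A and 0.763, 2.13 and 1.03 in pGIPZ libraries. The shFOXA1 libraries were among the lowest, and the HIF1A hairpin raised GPX2 in them by 0.93 ± 0.29 (limma adjusted p = 0.0210), a call lost without shFOXA1 2, shFOXA1 + shHIF1A 2 or shFOXA1 + shHIF1A 3 (limma adjusted p 0.0633 to 0.0790). GPX4, which reduces lipid peroxides, and GSR, glutathione reductase, were not called with KC7F2 in either background, with log2 changes of 0.08 and 0.34 in shFOXA1 cells and 0.40 and 0.17 in pGIPZ cells.

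In the thioredoxin system, 3 of 5 genes rose with KC7F2 in shFOXA1 cells and 2 of 5 in pGIPZ cells, against 1.71% and 1.05% of all genes. TXNRD1, thioredoxin reductase 1, measured 350.0, 360.0 and 342 RPKM in shFOXA1 + KC7F2, 102, 100.4 and 91.3 in shFOXA1 + shHIF1A, 197, 187 and 178 in shFOXA1, 254, 284 and 272 in pGIPZ + KC7F2, 67.6, 74.2 and 65.7 in shHIF1A and 165, 185 and 178 in pGIPZ libraries. Only the shFOXA1 and pGIPZ groups overlapped, the KC7F2 groups lay above both and the HIF1A hairpin groups below both. TXNRD1 rose with KC7F2 by 0.90 ± 0.09 in shFOXA1 cells (limma adjusted p = 1.06e-05) and by 0.61 ± 0.09 in pGIPZ cells (limma adjusted p = 6.18e-04, 0.0680 after quantile normalization). With the HIF1A hairpin it fell by 0.94 ± 0.09 in shFOXA1 cells (limma adjusted p = 4.23e-07) and by 1.34 ± 0.09 in pGIPZ cells (limma adjusted p = 1.10e-08). TXN, thioredoxin, measured 170.0, 143 and 181 RPKM in shFOXA1 + KC7F2, 132, 109 and 102 in shFOXA1 + shHIF1A, 157, 164 and 139 in shFOXA1, 265, 167 and 242 in pGIPZ + KC7F2, 95.6, 86.7 and 100.0 in shHIF1A and 283, 162 and 161 in pGIPZ libraries. pGIPZ 1 and pGIPZ + KC7F2 1 and 3, the short-gene libraries, were its highest 3, and TXN has 1142 nt of exon, among the shorter members. It fell by 1.05 ± 0.20 with the HIF1A hairpin in pGIPZ cells (limma adjusted p = 5.40e-04), and by 0.78 without those libraries. SRXN1, sulfiredoxin, which repairs overoxidised peroxiredoxins, rose with KC7F2 by 0.75 in shFOXA1 and 0.66 in pGIPZ cells, and PRDX1 was called in shFOXA1 cells alone, at 0.54, against 0.48 in pGIPZ cells. Reads of TXN and PRDX1 can also match processed copies elsewhere in the genome.

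The aldo-keto reductases, which reduce carbonyls and steroid ketones, had the largest median change with KC7F2 of the roles with more than 1 tested gene, 1.51 log2 units in shFOXA1 and 1.00 in pGIPZ cells, though at low levels. AKR1B10 measured 6.27, 4.96 and 6.72 RPKM in shFOXA1 + KC7F2, 12.7, 7.35 and 8.18 in shFOXA1 + shHIF1A, 2.20, 1.54 and 1.45 in shFOXA1, 1.45, 1.18 and 1.62 in pGIPZ + KC7F2, 4.21, 3.35 and 3.10 in shHIF1A and 0.662, 0.433 and 0.243 in pGIPZ libraries. Every perturbed library was above every pGIPZ library, and only the shFOXA1 and pGIPZ + KC7F2 groups overlapped. AKR1B10 rose with the HIF1A hairpin by 2.13 ± 0.21 in shFOXA1 and 2.11 ± 0.21 in pGIPZ cells, with KC7F2 by 1.54 ± 0.21 and 1.04 ± 0.21, and with FOXA1 depletion by 1.25 ± 0.21, the scale understating changes at such levels. AKR1C1 measured 17.5, 15.6 and 18.2 RPKM in shFOXA1 + KC7F2, 0.890, 1.23 and 1.81 in shFOXA1 + shHIF1A, 4.05, 3.56 and 2.24 in shFOXA1, 9.66, 7.24 and 9.28 in pGIPZ + KC7F2, 0.361, 0.825 and 1.47 in shHIF1A and 4.98, 3.88 and 2.88 in pGIPZ libraries. The shFOXA1 + KC7F2 libraries were highest and the pGIPZ + KC7F2 libraries next, without overlap. AKR1C1 rose with KC7F2 by 2.25 ± 0.27 in shFOXA1 cells (limma adjusted p = 1.04e-04), and the change in pGIPZ cells, 1.08 ± 0.27, was not called (limma adjusted p = 0.0512). It fell with the HIF1A hairpin by 1.06 ± 0.27 in shFOXA1 and 1.73 ± 0.27 in pGIPZ cells.

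AKR1C2, which inactivates dihydrotestosterone, measured 3.95, 4.42 and 4.83 RPKM in shFOXA1 + KC7F2, 1.03, 1.04 and 0.914 in shFOXA1 + shHIF1A, 1.53, 1.81 and 1.30 in shFOXA1, 3.60, 2.60 and 3.38 in pGIPZ + KC7F2, 0.460, 0.400 and 0.433 in shHIF1A and 1.74, 1.29 and 1.17 in pGIPZ libraries. The order of its groups was nearly that of AKR1C1, with shHIF1A libraries lowest. It rose with KC7F2 by 1.26 ± 0.15 in shFOXA1 and 0.96 ± 0.15 in pGIPZ cells and fell with the HIF1A hairpin by 1.02 ± 0.15 in pGIPZ cells. AKR1C3, which makes testosterone from androstenedione, measured 8.13, 6.72 and 6.63 RPKM in shFOXA1 + KC7F2, 3.57, 2.104 and 3.12 in shFOXA1 + shHIF1A, 2.03, 3.06 and 1.76 in shFOXA1, 1.96, 1.91 and 2.34 in pGIPZ + KC7F2, 1.34, 1.02 and 1.87 in shHIF1A and 0.978, 0.698 and 0.979 in pGIPZ libraries. It was highest in shFOXA1 + KC7F2 libraries and lowest in pGIPZ libraries, both without overlap. FOXA1 depletion raised AKR1C3 by 0.99 ± 0.20 (limma adjusted p = 0.00199) and by 1.57 ± 0.20 with KC7F2 present. AKR1C1, AKR1C2 and AKR1C3 lie side by side on chromosome 10, AKR1C1 and AKR1C2 being close to identical in sequence, and AKR1B1 and AKR1B10 are relatives on chromosome 7, so the split of reads within each family is uncertain.

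Of the 4 haem genes, HMOX1 included, limma called 0 with KC7F2 in pGIPZ cells and 1, FECH, higher in shFOXA1 cells. Over all genes 1.05% and 1.71% were called higher. In pGIPZ cells 2 of them had an unadjusted limma p below 0.05, as had 1537 of all 12900 genes. FECH, ferrochelatase, which inserts iron into protoporphyrin to make haem, measured 41.6, 39.1 and 38.4 RPKM in shFOXA1 + KC7F2, 18.3, 16.6 and 16.4 in shFOXA1 + shHIF1A, 32.9, 32.5 and 30.9 in shFOXA1, 46.6, 47.0 and 46.5 in pGIPZ + KC7F2, 21.0, 22.2 and 20.9 in shHIF1A and 46.6, 42.6 and 41.2 in pGIPZ libraries. Both HIF1A hairpin groups were below all others. FECH fell with the HIF1A hairpin by 0.89 ± 0.08 in shFOXA1 cells (limma adjusted p = 1.83e-07) and by 1.00 ± 0.08 in pGIPZ cells (limma adjusted p = 5.41e-08), and with FOXA1 depletion by 0.43 ± 0.08. With KC7F2 present the fall with FOXA1 depletion was 0.23 ± 0.08, which quantile normalization turned to 0.03. BLVRB, biliverdin reductase B, measured 149, 146 and 149 RPKM in shFOXA1 + KC7F2, 119, 130.0 and 114 in shFOXA1 + shHIF1A, 94.4, 119 and 105 in shFOXA1, 253, 207 and 223 in pGIPZ + KC7F2, 129, 103 and 83.7 in shHIF1A and 182, 172 and 121 in pGIPZ libraries. The pGIPZ + KC7F2 libraries overlapped no other group. BLVRB fell with FOXA1 depletion by 0.56 ± 0.16 and with the HIF1A hairpin by 0.59 ± 0.16, and the first call was lost without 1 of pGIPZ 1, pGIPZ 2, shFOXA1 1 or shFOXA1 3 (limma adjusted p 0.0501 to 0.0789). SLC48A1, a haem transporter, measured 10.2, 9.06 and 7.60 RPKM in shFOXA1 + KC7F2, 10.5, 9.41 and 11.9 in shFOXA1 + shHIF1A, 7.71, 7.29 and 6.82 in shFOXA1, 11.2, 12.8 and 9.01 in pGIPZ + KC7F2, 16.8, 15.4 and 14.6 in shHIF1A and 7.57, 8.42 and 8.98 in pGIPZ libraries. It was highest in shHIF1A libraries, without overlap, rising by 0.87 ± 0.13 in pGIPZ and 0.51 ± 0.13 in shFOXA1 cells.

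OSGIN1, an oxidative stress growth inhibitor, measured 21.4, 18.9 and 18.2 RPKM in shFOXA1 + KC7F2, 10.1, 9.07 and 11.3 in shFOXA1 + shHIF1A, 6.76, 6.75 and 6.38 in shFOXA1, 17.4, 17.5 and 15.3 in pGIPZ + KC7F2, 9.42, 6.81 and 7.54 in shHIF1A and 8.39, 6.45 and 6.35 in pGIPZ libraries. Every KC7F2 library exceeded every other. OSGIN1 rose by 1.48 ± 0.13 in shFOXA1 cells (limma adjusted p = 3.69e-06) and by 1.20 ± 0.13 in pGIPZ cells (limma adjusted p = 5.49e-05). TRIM16, an E3 ligase tied to KEAP1 and p62, measured 22.3, 19.8 and 21.4 RPKM in shFOXA1 + KC7F2, 19.998, 18.5 and 20.7 in shFOXA1 + shHIF1A, 13.7, 12.6 and 14.1 in shFOXA1, 13.8, 13.4 and 12.6 in pGIPZ + KC7F2, 12.05, 13.9 and 11.6 in shHIF1A and 8.28, 9.22 and 6.75 in pGIPZ libraries. It was lowest in pGIPZ libraries, and each perturbation raised it, by 0.71 with FOXA1 depletion, 0.69 with KC7F2 and 0.61 with the HIF1A hairpin in cells with no other perturbation. PIR, an iron-binding nuclear protein, measured 7.24, 6.70 and 8.63 RPKM in shFOXA1 + KC7F2, 2.75, 5.04 and 3.12 in shFOXA1 + shHIF1A, 4.99, 3.57 and 3.84 in shFOXA1, 10.4, 6.91 and 11.6 in pGIPZ + KC7F2, 4.68, 5.44 and 5.04 in shHIF1A and 9.36, 5.75 and 3.97 in pGIPZ libraries. Its pGIPZ libraries spread widely, and its change with KC7F2 was not called in either background, at 0.61 ± 0.25 in pGIPZ and 0.80 in shFOXA1 cells. All shFOXA1 + KC7F2 libraries were above all shFOXA1 libraries. ABCC1, an exporter of glutathione conjugates, was the only transporter high enough to test and was called neither with KC7F2, at 0.28 in shFOXA1 and -0.23 in pGIPZ cells, nor with the HIF1A hairpin, at -0.32 and -0.03.

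The 4 untested members were near 0. GSTP1, a glutathione transferase known to be silenced by promoter methylation in LNCaP, reached 8 reads in pGIPZ + KC7F2 1 and had at most 1 read in each of the other 17 libraries. AKR1B1 reached 27 reads in shFOXA1 + KC7F2 3, a value of 2.29 RPKM, against at most 0.700 in the other 17 libraries. ABCC2 and ABCC3, exporters of the same family as ABCC1, did not pass 0.157 RPKM in any library.

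A wider list of 52 pathway genes outside the 37 had 47 tested. With KC7F2 8 of them rose and 2 fell in shFOXA1 cells, and 9 rose and 0 fell in pGIPZ cells. These were 17.0% higher and 4.26% lower in shFOXA1 cells, against 1.71% and 2.37% of all genes, and 19.1% higher in pGIPZ cells, against 1.05%. PGD, an NADPH-producing dehydrogenase, rose by 0.81 log2 units in pGIPZ cells, with TRIM16L, a paralog that can share reads with TRIM16, at 0.89. In shFOXA1 cells UGDH, which makes UDP-glucuronate, rose by 0.90 and SLC3A2, the partner chain of SLC7A11, by 1.15. With the HIF1A hairpin 9 rose and 7 fell in shFOXA1 cells, and 7 rose and 7 fell in pGIPZ cells. In shFOXA1 cells that is 19.1% higher and 14.9% lower, against 24.0% and 13.5% of all genes. In pGIPZ cells it is 14.9% in each direction, against 25.9% higher and 16.1% lower. With FOXA1 depletion 10 rose and 7 fell, 21.3% and 14.9% of the list, against 9.52% and 14.6% of all genes. The 3 genes of smallest adjusted p, not those of largest change, were SOD2, the mitochondrial superoxide dismutase, which rose by 1.56, ALDH3A2, a fatty aldehyde dehydrogenase, by 1.01 and TXNIP, the thioredoxin-binding protein, by 0.83. When the HIF1A hairpin was added to shFOXA1 cells, SOD2, TXNIP and ALDH3A2 were lower, by 1.22, 1.05 and 1.20. That comparison uses the same shFOXA1 libraries as the one that picked these 3 genes as higher there. A fall is therefore in part built in by the choice. FTH1, the heavy chain of ferritin, fell by 1.30 with the HIF1A hairpin in pGIPZ cells.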

How the data were processed

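RNA of 18 LNCaP libraries, 6 groups of 3, was analysed from 1 table of RPKM values that the authors deposited. The submitters' processing notes name STAR and the build hg38. How reads were counted, with which annotation and strand setting, is not given in the sources used here, and neither is the vehicle of KC7F2. All 18 value columns were used and 0 were left out; 32 lines without a value were dropped.

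Depth was recovered from 2367 short genes of up to 200 nt, whose low values are multiples of 1 read: 91.2 to 95.8% were whole within 2%. A gene near 1 RPKM therefore has few reads, and its spread includes counting error.

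Values were analysed as log2(RPKM + 0.5), which understates changes of low genes, for genes that reached 1 RPKM in 3 or more libraries. limma 3.58.1 in R 4.3.3 fitted 1 model of 6 groups with 12 residual degrees of freedom, with trend, and Benjamini-Hochberg adjustment over the 12900 genes of each of 11 contrasts. Calls are at 0.05. The script was tested on simulated data. Figures were drawn with matplotlib 3.10.9.

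The members and lists were chosen with earlier results of these data known. Values in every library are given for HMOX1, NQO1, NFE2L2, KEAP1 and the tested members whose group means differed by at least 1 log2 unit; from the wider list, up to 3 genes of smallest adjusted p were named per contrast, and a gene that this rule also picked is not reported here. Deviations of same-numbered libraries correlated above 0.1 in all 3 pairs in 0 of 9 comparisons (above 0 in 2), so the numbers were not taken as pairs. Alternatives were other pseudocounts (0.1 and 1), filters (none and 5 RPKM), scalings, robust moderation, fits of the compared groups alone, a replicate block, removal of length and GC trends (GENCODE 29), and libraries left out.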

Additional observations from a re-analysis of the deposited data

Results flagged for a closer look

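The effect of FOXA1 depletion differed with and without the HIF1A hairpin, by a limma interaction test over all 12900 genes, in 5 members. SLC7A11 had the largest value of the 5, 1.79 ± 0.15 log2 units (limma adjusted p = 1.64e-06), with all 3 shFOXA1 + shHIF1A libraries above, and all 3 shFOXA1 libraries below, every other library of the 4 groups in the test. HMOX1 had -1.45 ± 0.21 (limma adjusted p = 0.000283), PRDX6 0.79 ± 0.18 (limma adjusted p = 0.0106), NQO1 0.70 ± 0.17 (limma adjusted p = 0.0166) and BLVRB 0.78 ± 0.23 (limma adjusted p = 0.0459). HIF1A RNA itself had an interaction in the same test and was higher in shFOXA1 cells than in pGIPZ cells; FOXA1 was depleted less in the arm with the HIF1A hairpin, at 64.5 ± 5.77 RPKM in shFOXA1 + shHIF1A and 34.1 ± 1.51 in shFOXA1 cells (SD, n = 3 each), with an interaction of 0.58 ± 0.22 that was not called (limma adjusted p = 0.142). The part of either in the 5 results was not tested.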

How the results depend on the processing

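Of 174 called values, those of FOXA1 and HIF1A included, 111 were called under every alternative run and 63 were lost under at least 1. One direction turned: FECH between shFOXA1 + KC7F2 and pGIPZ + KC7F2 cells, to 0.0313 with quantile normalization. In fits of the compared groups alone, 7 members were called for shFOXA1 against pGIPZ and 1 for KC7F2 in pGIPZ cells. Fewer libraries estimate the spread in every such fit. KC7F2 in pGIPZ cells lost 16 calls, and FOXA1 depletion and the HIF1A hairpin in pGIPZ cells lost 4 each. KC7F2 in shFOXA1 cells lost 2, as did KC7F2 against the HIF1A hairpin in control-vector cells. In FOXA1-depleted cells KC7F2 against the HIF1A hairpin lost 3, and the HIF1A hairpin lost 1. FOXA1 depletion lost 3 with the HIF1A hairpin present and 2 with KC7F2 present, and the interaction with the HIF1A hairpin lost 1. The pGIPZ + KC7F2 and pGIPZ groups hold all 3 short-gene libraries. Neither the part of those libraries nor that of the smaller fits in these losses was tested. Without the 3 short-gene libraries, 7 were called for KC7F2 in pGIPZ cells and 7 for shFOXA1 + KC7F2 against pGIPZ + KC7F2; pGIPZ + KC7F2 2 was then alone in its group and assumed to vary like the others. With length and GC trends removed, 20 were called for shFOXA1 + shHIF1A against shHIF1A, and 1, SLC7A11, for the interaction with KC7F2. Over the 12201 genes in that fit, 889 were higher and 1103 lower in the first, and 16 and 16 in the second. The cause was not tested. The replicate block called 8 members for the interaction with the HIF1A hairpin, with 436 higher and 603 lower over all genes. It moved no other count of calls by over 1.5 times, and the libraries share only a number.

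Leaving out each library in turn gave 12 to 23 calls for KC7F2 in pGIPZ cells and 14 to 20 in shFOXA1 cells. Over all genes, 72 to 294 were higher and 71 to 203 lower in pGIPZ cells, and 114 to 151 and 181 to 206 in shFOXA1 cells. The HIF1A hairpin had 15 to 19 calls in pGIPZ cells and 12 to 16 in shFOXA1 cells. Over all genes, 2736 to 3212 were higher and 1730 to 2309 lower in pGIPZ cells, and 2391 to 2738 and 1481 to 1639 in shFOXA1 cells. FOXA1 depletion alone had 9 to 15 calls, with 944 to 1239 higher and 1330 to 2697 lower over all genes. With KC7F2 present it had 9 to 14 (9 without pGIPZ + KC7F2 1), with 819 to 1219 and 1992 to 3102 over all genes. With the HIF1A hairpin present it had 11 to 13, with 480 to 606 and 685 to 1142 over all genes. KC7F2 against the HIF1A hairpin had 24 to 27 in control-vector cells, with 1972 to 2538 higher and 2428 to 2881 lower over all genes. In FOXA1-depleted cells it had 19 to 21, with 1396 to 1569 and 2479 to 2735 over all genes. The interactions had 4 to 7 with the HIF1A hairpin and 0 to 0 with KC7F2. Over all genes, 276 to 627 were higher and 409 to 577 lower in the first, and 0 to 7 and 2 to 16 in the second. Depth limits GPX2 and the 4 untested members, which rest on few reads, and the aldo-keto reductases in their lowest groups. AKR1B10 was at 0.243 to 0.662 RPKM and AKR1C3 at 0.698 to 0.979 in pGIPZ libraries. AKR1C2 was at 0.400 to 0.460 and AKR1C1 at 0.361 to 1.47 in shHIF1A libraries.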
